A study of Homo sapiens with 15 samples.

Results

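The expression state of tamoxifen-resistant T47D cells kept on erdafitinib together with 4-hydroxytamoxifen (4-OHT) was set against that of parental T47D cells on vehicle, with 3 RNA-seq libraries on each side, 6 of the 15 in the series. T47D is an established luminal breast cancer line driven by the oestrogen receptor (ER). 4-OHT is the active metabolite of tamoxifen, and erdafitinib inhibits the kinases of the fibroblast growth factor receptors (FGFRs). The libraries of the 2 sides were assigned by their labels, but the comparison and the gene lists were chosen with earlier results of these data known. A further 3 libraries of resistant cells on vehicle were used to say which differences the pair had moved.

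Parental cells (PAR01 in the labels, "parental" here) were labelled sensitive to 4-OHT and received only vehicle, 0.05% DMSO. Resistant cells (TR01, "resistant" here) received vehicle, or 5 µM erdafitinib with 1 µM 4-OHT, called the pair here. Resistant cells on 4-OHT alone or erdafitinib alone enter a few values below. After 24 h of seeding, all cells spent 48 h in medium holding 2% charcoal-stripped serum and 8 µg/mL insulin, and treatment then lasted 120 h. The cells had different histories: parental cells were grown in 5% serum, and resistant cells in 2% charcoal-stripped serum with 1 µM 4-OHT, so the effects of cell line and of growth medium cannot be told apart. The labels name 1 resistant line, and how it was derived, or whether it is 1 clone, was not given in the sources used here. The 3 libraries of a group are called biological replicates with no further detail, so p-values reflect the spread among these libraries alone, and that spread may be technical. These are bulk samples, in which fewer cells of a type and less RNA per cell cannot be told apart.

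As background, ER bound to oestrogen switches on genes such as PGR and GREB1, and 4-OHT competes for that binding. FGFRs signal through the MAPK cascade, whose output includes its own inhibitors, the Sprouty and DUSP families. Cells that resist endocrine therapy can lose ER output, or take on mesenchymal and basal features such as matrix genes and smooth muscle actin. The series title sets the question of whether FGFR inhibition reverses resistance through genes of the epithelial-mesenchymal transition.

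The libraries of the 3 groups held 6946684 to 27229667 counts, the lowest in parental 2, and 3 counts in 1 library equalled 0.110 to 0.432 CPM. Levels below are CPM, counts scaled to each library's TMM-adjusted total, which compare samples within a gene. Of 16210 genes tested, the 3207 with the most GC-rich transcripts varied between libraries of 1 group. Their median deviation from the mean of all 15 libraries was -0.81 (log2) in resistant vehicle 1, 0.73 and 0.72 in resistant vehicle 2 and 3, -0.51, -0.12 and 0.59 with the pair, and -0.50, -0.84 and 0.65 in parental cells. Of the 7 luminal markers ESR1, FOXA1, GATA3, KRT8, KRT18, KRT19 and EPCAM, the lowest level in any of the 9 libraries was that of EPCAM in a parental library, 89.4 CPM. Leukocyte, endothelial and most fibroblast markers were near 0: with the pair, 12 of 12, 8 of 8 and 9 of 10 stayed under 1 CPM in each library, and CD3E, CD3D, AIF1, CDH5, TEK, CLDN5 and ERG had 0 counts in all 3 groups.

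Under the pair, resistant cells remained far from parental cells. With edgeR's quasi-likelihood test at a Benjamini-Hochberg adjusted p under 0.05 (a gene past it is "called" below), 5616 genes differed between the pair and parental cells (34.6% of those tested). Of these, 3150 were higher with the pair (19.4%) and 2466 lower (15.2%), and 3707 differed at least 2-fold. Resistant cells on vehicle differed from parental cells at 5818 genes (35.9%), 3220 higher (19.9%) and 2598 lower (16.0%). The counts of list members called below are to be read beside these shares of all genes. Of the 5818, 4809 (82.7%) were called in the same direction under the pair, 2 in the opposite direction and 1007 in neither. Both comparisons share the parental libraries, which raises that overlap. The share of higher genes among those called for the pair against parental cells was 56.1%, and 45.6% after a correction for GC content, which also shifted the median of all genes from 0.03 to -0.09 (log2).

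Between the pair and vehicle within resistant cells, only 79 genes were called (0.487%), 50 higher with the pair (0.308%) and 29 lower (0.179%), while 1016 had an unadjusted p under 0.05. This contrast tests the movement itself. Of the 79, 42 moved toward parental levels, 18 moved further away, and 19 were called against parental cells with the pair but not on vehicle. Of these 19, SP110 and MTARC1 (a mitochondrial enzyme gene, named after its values were seen) were also called on 4-OHT alone. The count was 303 with the GC correction (51.5% of them higher, against 63.3%), 246 with DESeq2's Wald test and 11 when the fit held only these 6 libraries. It was 35 to 111 with 1 of the 6 libraries left out, 35 without resistant vehicle 2 or 3, 46 without pair 1 or 2 and 40 without pair 3.

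For the 3888 genes that differed at least 2-fold between resistant and parental cells on vehicle, the share of the log2 gap that the pair closed had a median of 6.3% (quartiles -6.0 and 19.8%), and 154 genes had at least 50% closed. This share uses the resistant vehicle libraries on both sides, which inflates it. Measured on resistant cells on 4-OHT instead, with no library on both sides, the median over 3815 genes was 5.4% (quartiles -6.8 and 18.6%), and 123 reached 50%. A 95% interval wholly inside 2-fold of parental levels was found for 767 of the 5818 genes (13.2%), and for 4931 of all 16210 (30.4%). Within 1.5-fold, the number was 82 of the 5818.

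**Figure D1:**
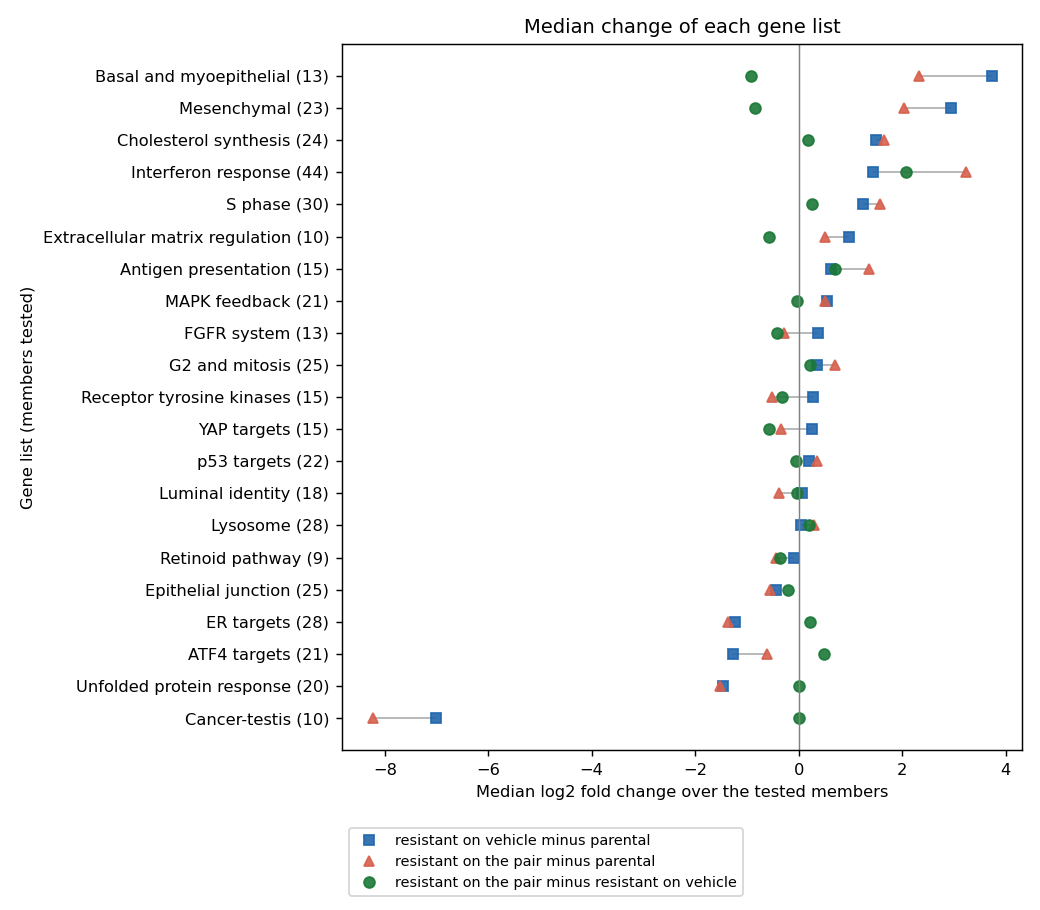
Median log2 fold change of each gene list with at least 9 tested members (rows, members tested in brackets), for resistant cells on vehicle against parental cells (squares), on the pair against parental cells (triangles) and on the pair against resistant vehicle (circles). Triangles lie near squares for the ER target, unfolded protein response, S phase and cholesterol lists, and the triangle of the interferon list lies at 3.23 against 1.44 for its square.

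The ER programme remained low. GREB1, an ER cofactor and target (ENSG00000196208, chromosome 2, 11482341 to 11642788), stood at 524, 452 and 481 CPM in parental cells, 11.4, 13.9 and 13.8 in resistant cells on vehicle, and 22.3, 18.7 and 27.3 with the pair. The pair libraries were all above those on vehicle, yet far under parental cells (log2 fold change -4.42, SE 0.20, edgeR adjusted p = 1.38e-09). The step from vehicle was 0.80 (SE 0.18) and did not pass (edgeR adjusted p = 0.0688; 0.00514 with DESeq2, 0.0186 after the GC correction and 0.0271 with the GC correction and replicate block).

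PGR, the progesterone receptor gene (chromosome 11, 101029624 to 101129813), had 4679, 4145 and 2766 CPM in parental cells and 278, 187 and 231 CPM with the pair, against 214, 124 and 134 on vehicle. Pair and vehicle libraries overlapped, and the difference from parental cells was -4.06 (log2, SE 0.27). SIAH2, a ubiquitin ligase gene, held 197 to 237 CPM in parental cells, 15.8 to 19.9 on vehicle and 18.5 to 24.6 with the pair. KCNK5, which encodes a potassium channel, was the most reduced of the ER targets at 66.4 to 175 CPM in parental cells and 0.118 to 0.227 with the pair (log2 fold change -9.21, SE 0.60).

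Of 28 ER target genes tested, 16 were lower with the pair than in parental cells and 4 higher, with a median log2 fold change of -1.37 against 0.03 over all genes. On vehicle the counts were 16 lower and 3 higher, with a median of -1.23. The step from vehicle to the pair had a median of 0.22, and 20 of 28 values were above 0. CXCL12, a chemokine gene, rose and CA12, which encodes a carbonic anhydrase, fell in that step. The 4 that were higher than in parental cells were CCND1 (log2 0.73), PDZK1 (0.92), CXCL12 (0.52) and RET (4.26), which encode cyclin D1, a scaffold protein, a chemokine and a receptor tyrosine kinase.

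ESR1 itself, the gene of ERα, was also lower, though 14 of the 16 targets called lower had a larger reduction. Parental libraries held 662, 589 and 476 CPM, resistant vehicle 251, 190 and 195, and the pair 336, 271 and 294. The pair lay between the other groups without touching either. Its difference from parental cells was -0.94 (log2, SE 0.16, edgeR adjusted p = 0.00033), and the step from vehicle was 0.50 (SE 0.16), which did not pass (edgeR adjusted p = 0.312).

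Luminal identity genes were mixed: of 18 tested, 7 were lower and 3 higher with the pair (median -0.37), none was called between the pair and vehicle, and on vehicle 7 were lower and 4 higher. TBX3, a T-box repressor gene, held 10.7 to 14.5 CPM in parental cells, 103 to 128 on vehicle and 105 to 132 with the pair. TFAP2C, the gene of a luminal AP-2 factor, had 151 to 213 CPM in parental cells, 29.99 to 37.14 on vehicle and 28.8 to 35.6 with the pair. Neither moved with the drugs beyond the spread, at 0.03 and -0.05 (log2, SE 0.16 and 0.15). FOXA1, whose product opens chromatin for ER, had 343 to 427 CPM in parental cells, 148 to 182 on vehicle and 168 to 214 with the pair.

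**Figure D2:**
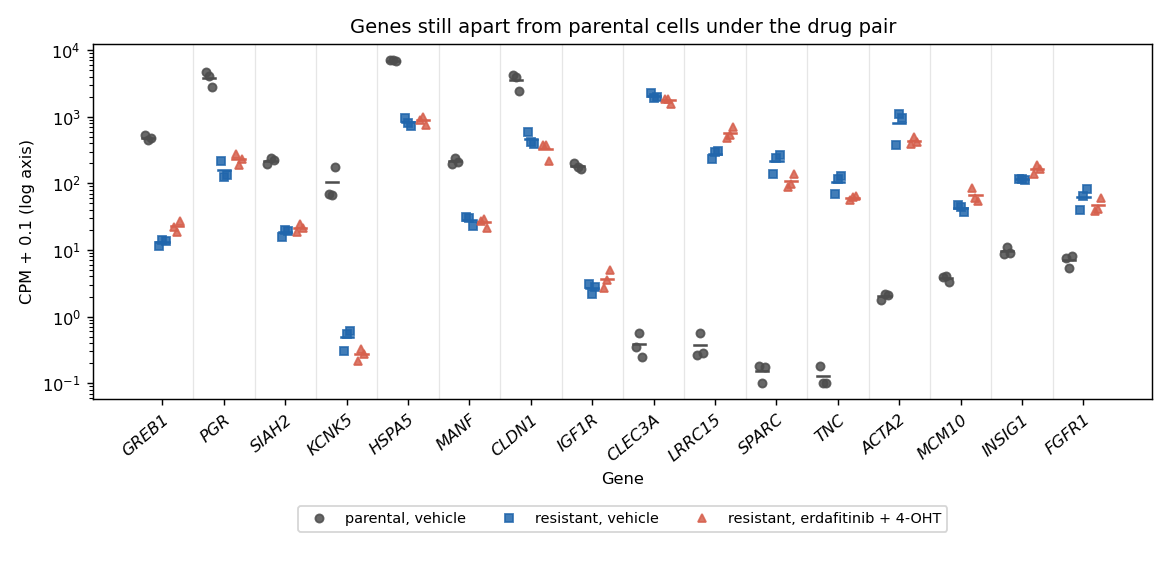
CPM plus 0.1 on a log axis in each library (points) with the group mean (bars) for 16 genes, in parental cells on vehicle, resistant cells on vehicle and resistant cells on the pair. For GREB1, PGR, SIAH2, KCNK5, HSPA5, MANF, CLDN1 and IGF1R the pair sits with resistant vehicle and below parental cells, and for the other 8 it sits above them.

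Genes of the unfolded protein response (UPR), which code for chaperones and folding enzymes of the endoplasmic reticulum, stayed low as a group. HSPA5, the gene of the chaperone BiP (ENSG00000044574, chromosome 9, 125234853 to 125241382), had 7073, 7086 and 6788 CPM in parental cells. It had 955, 796 and 717 on vehicle and 907, 986 and 760 with the pair. The 2 resistant groups overlapped throughout, and the step between them was 0.10 (log2, SE 0.15). Against parental cells the pair was at -2.98 (SE 0.16, edgeR adjusted p = 8.06e-09).

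The gene of MANF, a secreted stress protein, had 195 to 239 CPM in parental cells and 21.2 to 29.5 with the pair. Of 20 UPR genes tested, 19 were lower than in parental cells with the pair and 19 on vehicle, with medians of -1.52 and -1.47. None was called between the pair and vehicle, where the median was 0.02. The promoter of HSPA5 is shown because its list had the most uniform reduction. It is the 250 bases before the RefSeq start (GRCh38.p14, chr9:125241344-125241593, minus strand), with a match to the ER stress element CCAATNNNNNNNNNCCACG in capitals at bases -66 to -48 from the start.
HSPA5: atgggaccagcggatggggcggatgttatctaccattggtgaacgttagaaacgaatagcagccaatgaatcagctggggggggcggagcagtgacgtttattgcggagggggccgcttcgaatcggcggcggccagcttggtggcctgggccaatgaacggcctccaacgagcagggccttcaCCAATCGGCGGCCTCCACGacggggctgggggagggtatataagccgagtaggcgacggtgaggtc
The element, searched on both strands, was found in 7 of the 19 list members with a promoter entry (36.8%) and in 25 of 27305 genes with one (0.0916%). Palindromic oestrogen response elements, GGTCANNNTGACC, were found in 0 of 21 ER targets with an entry and in 0.0513% of all genes, which says only that these letters are not in those windows.

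ATF4 targets form the amino acid and stress arm of the same response. Of 21 tested, 9 were lower and 2 higher than in parental cells with the pair (median -0.62), against 11 lower and 1 higher on vehicle (median -1.27). The step to the pair had a median of 0.49, with 15 of 21 values above 0 and 1 gene called. That gene was PSAT1, an enzyme of serine synthesis, at 92.0, 97.5 and 94.7 CPM in parental cells, 56.4, 52.6 and 49.1 on vehicle and 76.1, 102 and 98.7 with the pair. It overlapped parental levels (log2 -0.04, 95% interval -0.35 to 0.27), and its rise of 0.81 (log2) kept its call in 8 of 15 other settings, with edgeR adjusted p up to 0.302. STC2, which encodes stanniocalcin 2, stayed far below, with 2288 to 2857 CPM in parental cells and 381 to 544 with the pair.

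Of 13 mesenchymal genes called higher in resistant cells on vehicle, 12 were still called higher with the pair. Over all genes called on vehicle, in either direction, 82.7% were called the same way with the pair. SPARC, a secreted matrix protein gene (ENSG00000113140, chromosome 5, 151661096 to 151686975), had 0.0839, 0 and 0.0728 CPM in parental cells, 138, 241 and 262 on vehicle, and 86.8, 97.4 and 139 with the pair. With 3 counts in all parental libraries, the pair stood 1636 times higher (95% counting interval 559 to 7933). The step from vehicle was -0.99 (log2, SE 0.24; edgeR adjusted p = 0.134), and it passed with DESeq2 (0.0315), after the GC correction (0.0417), with no filter on low counts (0.0252) and without resistant vehicle 1 (0.0155).

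TNC, which encodes tenascin C, had a single parental total of 1 count, then 69.0, 117 and 130 CPM on vehicle, and 56.1, 61.8 and 64.1 with the pair, a ratio to parental cells of 2765 (95% counting interval 496 to 109200). All 3 pair libraries were under all 3 on vehicle, with a step of -0.80 (log2, SE 0.24) that did not pass (edgeR adjusted p = 0.295; 0.0153 after the GC correction, 0.0253 with the replicate block added and 0.035 without resistant vehicle 1). VIM, the vimentin gene, was barely detected in parental cells (2 counts in all) and held 1.67 to 2.45 CPM with the pair, against 0.774 to 1.68 on vehicle.

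Of 23 mesenchymal genes tested, 12 were higher and 5 lower than in parental cells with the pair, with a median of 2.03 (2.099 with the 6 genes near 0 at their counting ratios or bounds). On vehicle 13 were higher and 4 lower, with a median of 2.94. The step from vehicle to the pair had a median of -0.84, with 20 of 23 values below 0, but only 2 genes passed. These were FN1, described below, and TPM1, a tropomyosin gene already under parental levels on vehicle (184, 142 and 80.8 CPM as means of parental, vehicle and pair libraries). Transcription factor genes went opposite ways: SNAI2, with 0 counts in parental cells, was at least 8.40-fold higher with the pair, while SNAI1 was at -2.53 (log2) and TWIST1 at -4.09. The AP-1 motif TGANTCA, either strand, was in the promoters of 2 of 16 list members with an entry (12.5%) and of 8.06% of all genes.

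Basal and myoepithelial genes also stayed above parental levels. ACTA2, smooth muscle actin, had 1.68, 2.06 and 2.04 CPM in parental cells, 373, 1110 and 974 on vehicle, and 385, 492 and 413 with the pair. Resistant vehicle 1, the library with the lowest GC-rich values of its group, lay below all pair libraries, and the step of -0.93 (log2, SE 0.30) passed only without that library among the settings run (-1.27, edgeR adjusted p = 0.00492). MYLK, the gene of myosin light chain kinase, had 0.728 to 1.11 CPM in parental cells, 39.0 to 47.4 on vehicle and 25.7 to 29.4 with the pair.

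Of 13 basal genes tested, 9 were higher and 3 lower than in parental cells with the pair (median 2.33, or 1.84 with the 1 gene near 0 at its bound), and 9 higher and 2 lower on vehicle (median 3.73, or 3.34). From vehicle to the pair the median was -0.93 with 12 of 13 values below 0, and only CRYAB was called. TP63, a master regulator of basal cells, was at 15.3 to 23.1 CPM with the pair, 28.4 to 34.9 on vehicle and up to 1.59 in parental cells. The keratins KRT5, KRT14, KRT17, KRT6A and KRT6B, which define basal cells, stayed under 1 CPM in all 9 libraries.

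Epithelial junction genes were lower with the pair. CLDN1, a tight junction claudin, had 4176, 3954 and 2454 CPM in parental cells, 598, 424 and 388 on vehicle, and 382, 379 and 216 with the pair. GRHL1, an epithelial transcription factor gene, held 38.4 to 50.5, 15.0 to 19.8 and 12.8 to 16.4 CPM in that order. Of 25 tested, 12 were lower and 3 higher than in parental cells (median -0.55), and 7 lower and 3 higher on vehicle (median -0.44). CDH1, the E-cadherin gene, was among the 3 that were higher, with 661, 654 and 517 CPM in parental cells and 1030, 922 and 917 with the pair (log2 0.65, SE 0.13, edgeR adjusted p = 0.0018). CDH3, P-cadherin, stood at 11.8 to 17.3 CPM in parental cells and 73.9 to 101 with the pair. No member was called between the pair and vehicle, where 20 of 25 values were below 0.

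The receptors that erdafitinib targets differed in how they stood. FGFR1 had 7.55, 5.24 and 8.04 CPM in parental cells, 40.4, 65.2 and 83.2 on vehicle, and 38.4, 41.7 and 60.3 with the pair, so the resistant groups overlapped and both were above parental cells (pair 2.73, SE 0.28, log2). FGFR2 (chromosome 10, 121478332 to 121598458) had 71.5, 64.5 and 68.2 CPM in parental cells, 77.1, 95.4 and 107 on vehicle, and 54.1, 54.8 and 59.6 with the pair. It fell by 0.73 (log2, SE 0.14, edgeR adjusted p = 0.0375) from vehicle to the pair, a call lost in 10 of 15 other settings (adjusted p up to 0.433), and its interval against parental cells was -0.59 to 0.03. FGFR3 overlapped between all groups at 0.953 to 7.71 CPM. FGFR4 was at 0.336 to 1.82 CPM in parental cells and 3.71 to 11.8 with the pair (log2 2.59, SE 0.77), a call lost without parental 1 (edgeR adjusted p = 0.0677), without pair 3 (0.0826) or without the 2 shallowest libraries (0.0529).

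Among the other genes of the FGFR system, SULF1, which encodes a sulfatase that trims heparan sulfate, was far lower: 196 to 298 CPM in parental cells, 3.67 to 4.64 on vehicle and 0.954 to 2.29 with the pair. Its step from vehicle was -1.44 (log2, SE 0.30), and at edgeR adjusted p = 0.0504 it did not pass. It passed with DESeq2 (0.00184), with no filter on low counts (0.00341), after the GC correction (0.00229, and 0.00453 with the replicate block) and without pair 1 (0.0124). Of 13 genes tested, 3 were higher and 4 lower than in parental cells with the pair (median -0.28), and 4 and 4 on vehicle (median 0.37). Over all genes tested, 19.4% were higher and 15.2% lower with the pair than in parental cells. From vehicle to the pair 12 of 13 values were below 0, with FGFR2 the 1 gene called, while over all genes 8797 of 16210 were below 0. The median of the list was -0.42, and -0.19 after the GC correction.

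Of 15 MAPK feedback genes called in resistant cells on vehicle, 11 were called the same way with the pair. Over all genes called on vehicle the share was 82.7%, so the list did not keep its direction more often. DUSP6, the ERK phosphatase, had 11.9, 11.4 and 7.46 CPM in parental cells, 3.41, 3.07 and 3.73 on vehicle, and 3.43, 3.91 and 3.25 with the pair. SPRY4, a Sprouty inhibitor with 0 counts in parental cells, was at least 52.5-fold higher with the pair (244 counts, against a floor of 3 over the group). PHLDA1, a feedback gene induced by MAPK, held 34.6 to 39.0 CPM in parental cells, 167 to 227 on vehicle and 158 to 178 with the pair. SPRED3, an inhibitor of the Ras-MAPK pathway, had 3.61, 1.75 and 2.47 CPM in parental cells, 5.88, 8.46 and 8.89 on vehicle, and 3.71, 4.95 and 4.11 with the pair, between the other groups. It was not called against parental cells (log2 0.68, SE 0.28, edgeR adjusted p = 0.0778), and its step of -0.86 from vehicle passed only with DESeq2 (0.0455). FOS, the immediate early factor, held 59.6 to 113 CPM in parental cells and 0.227 to 0.600 with the pair.

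Of 21 feedback genes tested, 8 were higher and 5 lower than in parental cells with the pair (median 0.51), and 10 and 5 on vehicle (median 0.55). None was called between the pair and vehicle at an adjusted p under 0.05, and the median there was -0.03. Among 15 receptor tyrosine kinases, 3 were higher and 6 lower with the pair (median -0.53), and 3 and 5 on vehicle (median 0.28). None was called between the pair and vehicle, where the median was -0.31, and -0.17 after the GC correction. IGF1R, the receptor of insulin-like growth factor 1, had 205, 174 and 162 CPM in parental cells, 2.94, 2.06 and 2.67 on vehicle, and 2.56, 3.41 and 4.88 with the pair.

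Replication genes were higher with the pair than in parental cells, and no S phase gene was called lower. MCM10, a replication initiation factor gene, had 3.86, 3.97 and 3.24 CPM in parental cells, 46.5, 43.9 and 36.9 on vehicle, and 85.1, 61.0 and 53.5 with the pair. The pair libraries were above all vehicle libraries, but the step of 0.65 (log2, SE 0.18) did not pass (edgeR adjusted p = 0.226; 0.028 after the GC correction and 0.0443 with the replicate block added). Of 30 S phase genes tested, 24 were higher and 0 lower than in parental cells (median 1.58), against 22 and 0 on vehicle (median 1.25). All 30 values for the pair against vehicle were above 0, with a median of 0.25, and none was called.

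Mitotic genes showed a smaller difference, with 13 of 25 higher and 0 lower with the pair (median 0.70), and 7 higher and 2 lower on vehicle (median 0.35). The count of 13 was 9 to 15 over the other settings. CDK1, the mitotic kinase, was at 107 to 120 CPM in parental cells, 164 to 219 on vehicle and 187 to 255 with the pair. MKI67, the gene of the proliferation antigen Ki-67, had 99.7, 94.8 and 48.0 CPM in parental cells, 154, 118 and 106 on vehicle, and 255, 159 and 153 with the pair. The pair was above parental cells (log2 1.23, SE 0.27, edgeR adjusted p = 0.00249), and its difference from vehicle, 0.58 (SE 0.26), did not pass.

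Cholesterol synthesis genes, which are switched on by SREBP2 when sterols are short, also stayed high. INSIG1, a sterol sensor of the same programme, had 8.47, 10.8 and 8.99 CPM in parental cells, 118, 115 and 113 on vehicle, and 140, 187 and 162 with the pair. It was 4.12 (log2, SE 0.16) above parental cells, and its step of 0.50 (SE 0.13) from vehicle did not pass, although the groups did not overlap. ACAT2, which makes acetoacetyl-CoA, held 14.1 to 17.1 CPM in parental cells and 73.4 to 101 with the pair. Of 24 tested, 19 were higher and 0 lower than in parental cells (median 1.65), 17 and 0 on vehicle (median 1.504), and none was called between the pair and vehicle (median 0.18). The sterol element core CACCCCAC was in 1 of 18 promoters with an entry (5.56%) and in 2.97% of all genes.

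A small set of genes did approach parental levels. Of the 42 that moved toward parental cells, 24 fell and 18 rose. Against parental cells 23 of them were still called the same way, 17 were not called and 2 were called the opposite way, and 15 had an interval inside 2-fold. The 2 called the opposite way were CXCL12 and ZNF710-AS1, an antisense transcript, the latter named after its values were seen.

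GPNMB, which codes for a glycoprotein of lysosomes and melanosomes (ENSG00000136235, chromosome 7, 23235967 to 23275108), had the smallest p. It had 87.0, 84.98 and 80.3 CPM in parental cells, 5.26, 5.72 and 6.57 on vehicle and 38.0, 33.9 and 50.3 with the pair. The 3 groups were separate, the pair rose by 2.80 (log2, SE 0.18, edgeR adjusted p = 4.43e-06) over vehicle, and 72.8% of the log2 gap was closed. LAMP3, a lysosomal membrane protein gene also induced by interferon (chromosome 3, 183122215 to 183163839), had 91.1, 86.9 and 64.3 CPM in parental cells, 16.2, 13.5 and 9.71 on vehicle, and 105, 74.4 and 121 with the pair. Its rise of 2.94 (log2, SE 0.25) brought it to parental levels, which the pair libraries overlapped (log2 0.31, 95% interval -0.19 to 0.82).

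RRAGD, the lysosomal Rag GTPase D gene, rose by 1.38 (log2) from a mean of 6.82 CPM on vehicle to 17.7 with the pair, against 24.4 in parental cells. The wider lysosome list did not follow: of 28 tested, GPNMB and RRAGD were the 2 called between the pair and vehicle (median 0.20). Against parental cells with the pair, 4 were higher and 1 lower, and on vehicle 4 and 4. CTSL, the cathepsin L gene, was one of those higher, at 5.88 to 12.0 CPM in parental cells and 18.6 to 20.7 with the pair.

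FN1, the fibronectin gene (ENSG00000115414, chromosome 2, 215360440 to 215436073), was the mesenchymal gene whose interval lay within 2-fold of parental levels after a called fall. It had 41.9, 39.9 and 32.9 CPM in parental cells, 82.4, 87.4 and 88.4 on vehicle and 44.5, 32.8 and 35.9 with the pair. Pair and parental libraries overlapped (log2 -0.02, 95% interval -0.37 to 0.33), and the fall from vehicle was -1.19 (SE 0.16, edgeR adjusted p = 0.0027). CCL28, a mucosal chemokine gene, had 81.3, 86.7 and 73.1 CPM in parental cells, 202, 180 and 187 on vehicle, and 94.5, 97.5 and 85.4 with the pair, with 83.6% of the gap closed. CXCL12 passed beyond: 305, 288 and 280 CPM in parental cells, 184, 180 and 183 on vehicle, and 371, 438 and 444 with the pair (log2 0.52 above parental cells, SE 0.12, edgeR adjusted p = 0.00379, and 0.0594 with only these 6 libraries in the fit).

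Other genes fell but stopped above parental levels. TIMP3, a tissue inhibitor of metalloproteinases (ENSG00000100234, chromosome 22, 32801705 to 32863041), had 1.09, 1.11 and 0.764 CPM in parental cells, 250, 223 and 262 on vehicle, and 77.5, 86.6 and 77.3 with the pair. It fell by 1.61 (log2, SE 0.13, edgeR adjusted p = 5.39e-05), yet it remained 6.42 (SE 0.18) above parental cells. ALDH1A3, a retinaldehyde dehydrogenase gene, had 2.60, 2.06 and 3.93 CPM in parental cells, 32.0, 31.2 and 32.7 on vehicle, and 10.9, 9.77 and 9.16 with the pair. CRYAB, a small heat shock protein gene, had 1.43, 0.953 and 1.27 CPM in parental cells, 8.30, 22.9 and 18.4 on vehicle, and 3.23, 3.00 and 2.83 with the pair. Each of these 3 was in 3 separate groups of libraries, with 49.2% of the gap closed for ALDH1A3 and 65.8% for CRYAB. On erdafitinib alone, resistant cells had mean CPM of 80.3 for TIMP3, 11.8 for ALDH1A3, 3.21 for CRYAB and 41.5 for FN1. With the pair these means were 80.5, 9.94, 3.02 and 37.7. For CCL28 and CXCL12 the means were 108 and 355 on erdafitinib alone, against 92.5 and 418 with the pair. GPNMB and LAMP3 had 27.4 and 31.9 CPM on erdafitinib alone, against 40.75 and 100 with the pair. Erdafitinib alone was not tested against any group.

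TGFB2, the gene of a TGF-β ligand, had 8.56, 8.89 and 5.89 CPM in parental cells, 55.9, 37.5 and 44.3 on vehicle, and 26.5, 16.4 and 12.9 with the pair. Its fall of -1.30 (log2, SE 0.26) lost its call in 8 of 15 other settings, with edgeR adjusted p up to 0.37. CCN2, a matricellular YAP target, was low throughout, at 0.252 to 0.794 CPM in parental cells, 1.86 to 2.60 on vehicle and 0.0428 to 0.454 with the pair, and lost its call in 6 of 15.

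**Figure D3:**
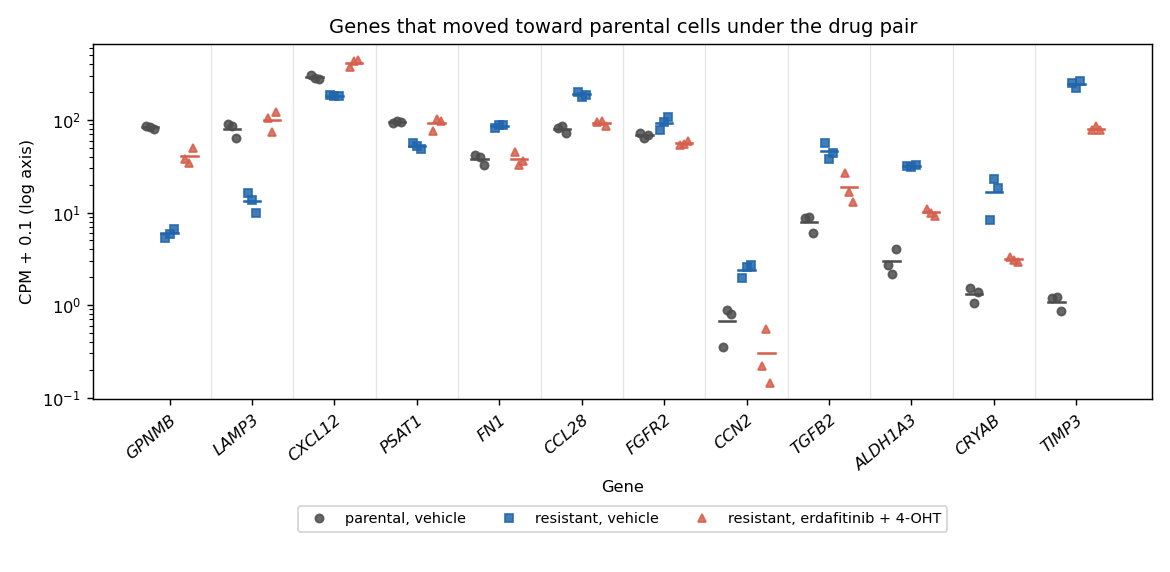
CPM plus 0.1 on a log axis in each library (points) with the group mean (bars) for 12 genes called between the pair and resistant vehicle in the direction of parental cells. The pair overlaps parental cells for LAMP3, PSAT1, FN1, CCL28 and CCN2, lies past them for CXCL12 (called against parental cells) and FGFR2 (not called), and stops between the other groups for GPNMB, TGFB2, ALDH1A3, CRYAB and TIMP3.

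Interferon-response genes moved the other way. Of 21 members called higher in resistant cells on vehicle, 14 rose again with the pair, and members that had not been called on vehicle rose as well. MX1, an antiviral GTPase gene (ENSG00000157601, chromosome 21, 41420020 to 41470071), had 7.05, 4.92 and 7.28 CPM in parental cells, 49.9, 43.4 and 22.8 on vehicle, and 515, 345 and 457 with the pair. The groups were separate, with the pair 3.51 (log2, SE 0.30, edgeR adjusted p = 5.39e-05) above vehicle and 6.07 (SE 0.35) above parental cells. On 1 drug alone, resistant cells held 38.5 to 48.1 CPM of MX1 with 4-OHT and 104.3 to 175.3 with erdafitinib.

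Of 44 interferon-response genes tested, 36 were higher and 0 lower with the pair than in parental cells, with a median of 3.23. On vehicle 21 were higher and 3 lower, with a median of 1.44. From vehicle to the pair 23 rose and 0 fell, 43 of 44 values were above 0 and the median was 2.07, against -0.03 over all genes. The count of 23 was 8 with only these 6 libraries in the fit, 15 without resistant vehicle 2 or 3, and up to 31 in the other settings. Leukocyte markers stayed under 1 CPM in each pair library, as given above. One of them, ITGAM, had 0 counts in parental cells, 66 on vehicle and 40 with the pair, and was called higher with the pair than in parental cells. Whether other cells contributed to the interferon values was not tested.

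OAS2, one of the oligoadenylate synthetases that sense double-stranded RNA, had 0.587, 1.59 and 0.728 CPM in parental cells, 36.8, 36.2 and 23.7 on vehicle, and 258, 179 and 264 with the pair. OAS3 had 6.29, 5.88 and 6.84, then 51.9, 73.2 and 56.4, then 270, 231 and 338 CPM in the same order. OAS1 rose likewise, from 4.31 to 7.43 CPM on vehicle to 43.5 to 66.1 with the pair. IFI27, an interferon-induced mitochondrial protein gene, had 0 to 0.168 CPM in parental cells, 1.14 to 2.32 on vehicle, and 48.2, 44.8 and 110 with the pair, a step of 5.32 (log2, SE 0.58, edgeR adjusted p = 0.000354).

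Genes that had not been called between resistant vehicle and parental cells included PARP9, an interferon-induced member of the PARP family. It had 32.0, 33.5 and 24.9 CPM in parental cells, 48.1, 29.9 and 27.3 on vehicle, and 161, 106 and 122 with the pair. The pair libraries were above all others, 1.88 (log2, SE 0.22, edgeR adjusted p = 0.000664) over vehicle and 2.11 (SE 0.23) over parental cells. XAF1, an interferon-induced gene linked to apoptosis, was at 14.8 to 31.7 CPM with the pair and 0 to 1.91 in the others. SAMHD1, a dNTP hydrolase gene, had 42.37 to 49.99 CPM on vehicle, 31.8 to 43.5 in parental cells and 86.8 to 99.4 with the pair, and SP110, a nuclear body gene, reached 29.3 to 38.4 CPM from 9.53 to 16.0.

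**Figure D4:**
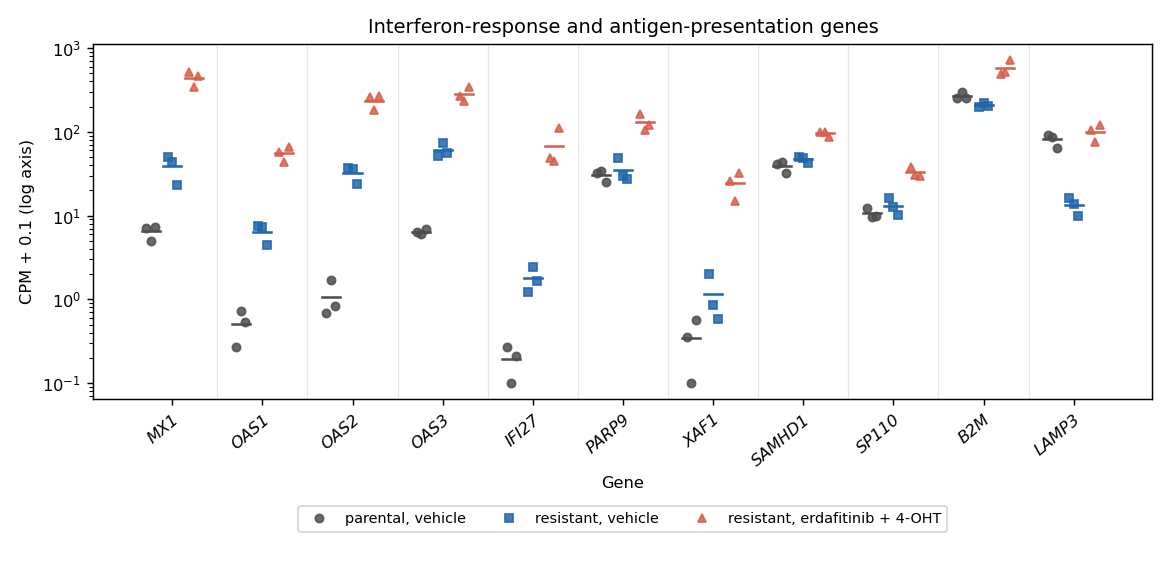
CPM plus 0.1 on a log axis in each library (points) with the group mean (bars) for 10 interferon-response genes and B2M. The pair lies above both other groups in each gene except LAMP3, where it overlaps parental cells and resistant vehicle lies below both.

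The promoters of 2 members are shown because the interferon list moved together. Both are the 250 bases before a RefSeq start (GRCh38.p14, plus strand): OAS3 at chr12:112938224-112938473, and MX1 at chr21:41431800-41432049, the window of 1 of its 3 listed starts. Capitals mark matches to the core of the interferon-stimulated response element, GAAANNGAAA, searched on both strands. They lie at bases -143 to -134 and -12 to -3 in OAS3, and at -196 to -187 on the opposite strand in MX1.
OAS3: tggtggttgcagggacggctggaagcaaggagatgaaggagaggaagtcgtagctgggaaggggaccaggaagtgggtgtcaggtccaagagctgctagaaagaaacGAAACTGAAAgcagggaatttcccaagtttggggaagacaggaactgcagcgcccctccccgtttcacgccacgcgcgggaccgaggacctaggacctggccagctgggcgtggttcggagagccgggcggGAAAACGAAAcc
MX1: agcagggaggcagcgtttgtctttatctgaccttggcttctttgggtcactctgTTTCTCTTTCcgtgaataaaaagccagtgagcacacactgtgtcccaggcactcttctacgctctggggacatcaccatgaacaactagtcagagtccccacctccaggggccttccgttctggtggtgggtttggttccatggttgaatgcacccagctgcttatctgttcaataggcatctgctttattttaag
The element was in 21 of 33 list members with a promoter entry (63.6%) and in 1014 of 27305 genes (3.71%). Of the 20 members with an entry that were called between the pair and vehicle, 13 held it. A match is a run of letters and not a measured binding site.

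Antigen presentation genes, many of which interferon induces, were higher as well: 10 of 15 higher and 0 lower than in parental cells with the pair (median 1.37), against 5 and 0 on vehicle (median 0.62). B2M, the light chain of HLA class I, had 250, 296 and 252 CPM in parental cells, 198, 223 and 203 on vehicle, and 495, 511 and 715 with the pair. It was the 1 member called between the pair and vehicle, where 13 of 15 values were above 0 (median 0.70). TAPBP, the tapasin gene, was high in both resistant groups, at 282 to 474 CPM on vehicle and 317 to 442 with the pair, against 141 to 206 in parental cells.

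Among the 18 genes that moved away from parental levels, 16 rose. LRRC15, a leucine-rich repeat membrane protein gene that is not on the interferon list, was among them. It had 0.146 to 0.477 CPM in parental cells, 231, 299 and 306 on vehicle, and 480, 526 and 694 with the pair. On erdafitinib alone its mean was 523 CPM, against 567 with the pair. Its step of 1.02 (log2, SE 0.19) from vehicle to the pair kept its call in 8 of 15 other settings, with edgeR adjusted p up to 0.289. The 2 that fell were TPM1 and CDC20B, a homologue of a mitotic regulator gene, with means of 96.9 CPM in parental cells, 9.30 on vehicle and 3.44 with the pair.

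The movement was also counted with no library on both sides, by taking the genes that differed between resistant cells on 4-OHT and parental cells and asking which the pair moved against resistant vehicle. Of 3105 genes higher on 4-OHT (19.2%), 23 fell with the pair (0.741%) and 17 rose (0.548%). Of 2621 lower genes (16.2%), 18 rose (0.687%) and 2 fell (0.0763%). That makes 41 toward and 19 away from parental levels, and 14 of the 19 were interferon-response genes. With the other unshared choice, resistant vehicle against parental cells and the pair against resistant 4-OHT (48 genes higher, 0.296%, and 56 lower, 0.345%), the counts were 62 toward and 21 away.

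**Figure D5:**
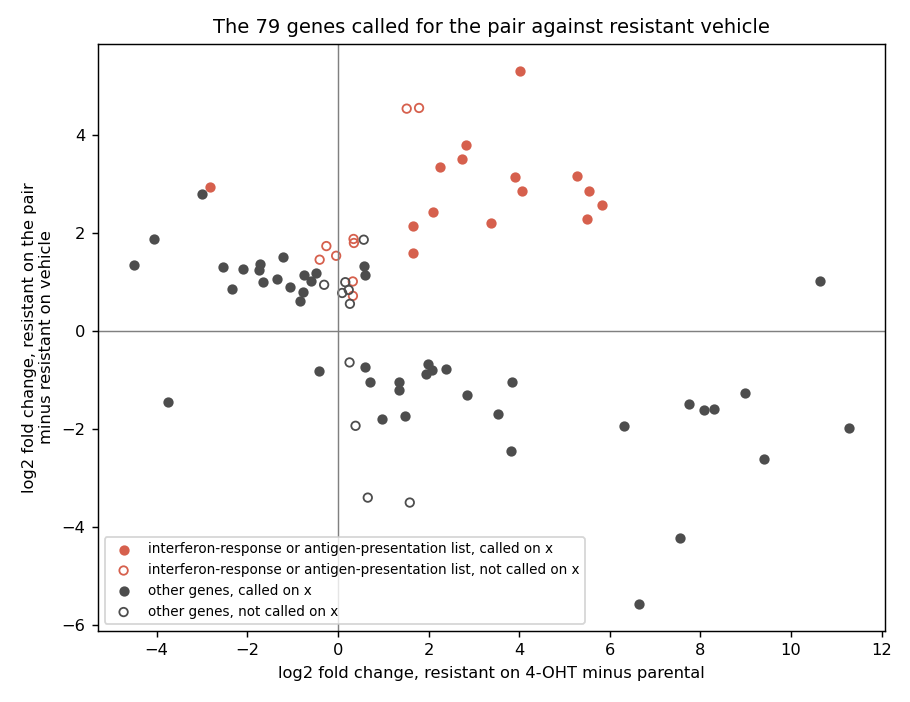
The 79 genes called between the pair and resistant vehicle, with their log2 fold change in that contrast (y) against that of resistant 4-OHT over parental cells (x), which uses other libraries; filled points are called on x, open points are not. Interferon-response and antigen presentation genes lie above 0 on y, with 14 filled points to the right and LAMP3 to the left, and most other filled points lie at the upper left or lower right.

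Of the 5 largest rises over parental cells, LRRC15, given above, was called between the pair and vehicle, and the other 4 were not. CLEC3A (ENSG00000166509), which encodes a lectin of the C type and lies on chromosome 16 (78022515 to 78066761), had 0.252, 0.476 and 0.146 CPM in parental cells, 2296, 1898 and 2012 on vehicle, and 1874, 1848 and 1555 with the pair (log2 12.89, SE 0.30, edgeR adjusted p = 3.59e-12). GNAT3, a taste-cell G protein subunit gene, had 3 counts in parental cells and 731, 489 and 508 CPM with the pair, a ratio of 8868 (95% counting interval 3034 to 43000). MPPED1, a metallophosphoesterase gene, and HPGD, the prostaglandin-degrading dehydrogenase gene, had 0 parental counts; with the pair they were higher by at least 551-fold and at least 241-fold. At the other end, KCNK5 and FOS, given above, were among the 5 largest falls.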

How the data were processed

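RNA was sequenced as stranded paired-end libraries, per the labels' protocols. The submitters' processing notes name HISAT2 2.1.0 and the build GRCh38. The authors deposited unnormalised counts for each Ensembl gene, made by featureCounts 2.0.1 on Ensembl 104 per the file headers, although the notes list version 1.4.6-p1. Reads that match several places were left out, per the file headers. Gene coordinates came from the count files. Gene types and GC content came from GENCODE 29, which covered 58396 of 60664 IDs.

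Analysis used edgeR 4.0.16 under R 4.3.3: filterByExpr (16210 genes kept), TMM (factors 0.907 to 1.102), and 1 quasi-likelihood fit of all 15 libraries with a mean per group and 10 residual degrees of freedom. The call threshold was 0.05 on the p adjusted by Benjamini-Hochberg over all genes. SE is the absolute log2 fold change over the square root of F. Of the 24 lists, those of leukocytes, fibroblasts and endothelium had 2, 3 and 1 members tested. A gene at 0 in a group was compared with 3 counts over that group, and one at 1 to 3 counts by its ratio with an exact 95% counting interval. Only counting error is covered by these intervals and floors.

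The comparison, gene lists and rules were chosen with earlier results of these data known. Named genes were the 5 largest rises and falls against parental cells (protein coding, average log2 CPM of at least 2, groups separate). The 8 and 5 genes with the smallest p between the pair and vehicle that moved toward or away from parental levels were added. A further 5 were called with the pair against parental cells and vehicle but not on vehicle against parental cells, by smallest p against parental cells. The rest were 2 members of each list with the smallest p against parental cells, 1 against resistant vehicle, and 13 fixed genes. A few list members outside this rule are named with values to account for a count, and 1 gene the rule chose is not reported here. Same-numbered parental and pair libraries deviated together (correlations 0.351, 0.161 and 0.626), a pattern found in the data and not stated in the labels. For resistant vehicle and pair libraries the correlations were 0.772, -0.013 and 0.75. Resistant vehicle and erdafitinib alone went opposite ways, with correlations of -0.827, -0.386 and -0.63. For erdafitinib alone and the pair they were -0.729, 0.106 and -0.657, and for 4-OHT alone and erdafitinib alone 0.485, 0.1 and 0.202. Whether libraries of 1 number share an origin was not tested. Alternatives were DESeq2 (1.42.0) size factors or Wald test, no filter, only the groups compared, the replicate block, a GC correction, and each library left out. Code was tested on simulated data. Promoters are RefSeq's (GRCh38.p14).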

Additional observations from a re-analysis of the deposited data

How the results depend on the processing

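The 5616 genes that differed between the pair and parental cells ranged from 3955 to 7839 over 15 other settings, and no called gene changed direction in any of them; 4609 to 5548 were called with 1 library left out, 5293 with the replicate block and 6537 with the block and only these groups, an alternative chosen after seeing the data, as was leaving out the 2 shallowest libraries (parental 2 and resistant 4-OHT 2). Genes lower with the pair numbered 4264 with the GC correction and 4194 with the replicate block and GC correction together. Between the pair and resistant vehicle, 79 genes (50 higher, 29 lower) became 246 (124, 122) with DESeq2's Wald test and 11 (9, 2) with only the groups compared. They became 303 (156, 147) with the GC correction, 251 (132, 119) with the replicate block and GC correction, and 52 (33, 19) with the replicate block. In deviations from group means, with no block fitted, 4 of these 6 libraries correlated best with the library of their own number in the other group. With 1 library left out the ranges were 35 to 111 called, 22 to 62 higher and 11 to 49 lower; without the 2 shallowest libraries 46 were lower. Genes moving toward parental levels numbered 41, and 25 with the replicate block, 170 with the GC correction and 62 with the other unshared sets; those moving away numbered 19, and 63 with the GC correction. The 767 resistant-state genes within 2-fold became 82 within 1.5-fold. Of 73 named genes called against parental cells, 71 kept their call in all 15 settings, and CXCL12 and FGFR4 lost it in 1 and 3. Of 24 called between the pair and vehicle, 9 kept it in all 15: GPNMB, TIMP3, LAMP3, ALDH1A3, MX1, OAS1, OAS2, OAS3 and IFI27. Of the named genes not called there, 16 passed in 1 to 5 other settings, among them ESR1, INSIG1, HPGD, CDH3 and MYLK. The causes were not tested. Depth limits parental cells most: 3 counts in parental 2 equal 0.432 CPM.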

Other observations

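Cancer-testis genes, normally restricted to germ cells, were split: of 10 tested, 7 were lower and 3 higher than in parental cells with the pair, the same counts as on vehicle, and none was called between the pair and vehicle. MAGEA3 had 21.6, 15.7 and 37.0 CPM in parental cells and 0 counts with the pair (at least 708-fold lower), and CSAG1 26.4 to 34.9 against 0.0788 to 0.0908 CPM. GAGE1 was higher, at 8.57 to 13.1 CPM against 0.168 to 0.635. MAGEA3, MAGEA6 and GAGE1 have near-identical copies, and reads that match several places were not counted, so their levels are uncertain. The median was -8.23, or -6.48 with the 4 genes near 0 at their bounds.

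The lists below are set beside all genes tested, of which 19.4% were higher and 15.2% lower with the pair than in parental cells. On vehicle these shares were 19.9% and 16.0%. Of 22 p53 targets, 7 were higher and 2 lower with the pair (median 0.35), and 6 and 2 on vehicle (median 0.20). None was called between the pair and vehicle. FAS, the death receptor gene, held 5.68 to 7.94 CPM in parental cells, 93.4 to 141 on vehicle and 77.2 to 115 with the pair. Of 15 YAP targets, 4 were higher and 2 lower with the pair (median -0.34), and 5 and 1 on vehicle (median 0.26). Between vehicle and the pair CCN2 and TGFB2 fell, and 14 of 15 values were below 0 (median -0.57, and -0.41 after the GC correction). Among 10 extracellular matrix regulators, 3 were higher and 3 lower in both comparisons with parental cells (medians 0.52 with the pair and 0.97 on vehicle), and TIMP3 was the 1 called between the pair and vehicle. In the retinoid pathway, of 9 genes 2 were higher and 2 lower with the pair (median -0.44), 3 and 1 on vehicle (median -0.08), and only ALDH1A3 was called between the pair and vehicle.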
